A study of Mus musculus with 10 samples.

Results

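Methylation was described at 10 genes of the Sox transcription factor family: Sox1, Sox4, Sox5, Sox6, Sox7, Sox8, Sox9, Sox10, Sox11 and Sox21. They were chosen by name, and every assayed CpG cytosine from 5 kb before to 5 kb after the gene span was used, which gave 2605 of the 2391795 cytosines in the table. Each gene was divided into 5 regions: the gene ends (cytosines within 1000 bp of the start or the end of the span), the body between them, and the flanks beyond them, out to 5000 bp outside the span. Of the 50 possible regions, 34 held at least 3 cytosines and are reported as measured. All 10 genes had a measured body and at least 1 measured end, but only Sox8 and Sox21 had a measured 3' end.

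The samples were whole mouse embryos at embryonic day 7.5, 5 from a control group and 5 from an arsenic group of what the labels call experiment 2, assayed by reduced representation bisulfite sequencing. This assay enriches CpG-rich fragments and reads unmethylated cytosines as thymine. No label gives the strain, the sex, or the dose, timing or route of arsenic. The count table numbers its 10 libraries without naming an embryo or a group, so arsenic and control embryos were not compared, and the libraries are not treated as replicates of either group. Levels below are pooled over the 10 libraries, each cytosine counting equally, with the lowest, median and highest library. Each library held between 94583116 and 127102232 cytosine reads, its median coverage per cytosine was 30 to 42 reads, and the mean autosomal level was 41.6% (40.3% to 42.8%). DNA methylation offers no RNA markers by which the tissue label could be checked.

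Sox proteins are transcription factors that bind and bend DNA through a shared HMG box and are sorted into subgroups by sequence. Sox1 (B1) maintains neural progenitors and Sox21 (B2) acts against the B1 proteins during neurogenesis. Sox4 and Sox11 (C) act in differentiating neurons and other progenitors. Sox5 and Sox6 (D) have no activation domain of their own and work with Sox9 in cartilage. Sox8, Sox9 and Sox10 (E) act in neural crest, gonad, cartilage and glia, and Sox7 (F) acts in endothelium and early endoderm. Sox1, Sox4, Sox11 and Sox21 are single-exon genes, whereas Sox5 and Sox6 are spread over very long introns. Promoters rich in CpGs are usually unmethylated in embryos, while bodies of genes are usually methylated.

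The 5' ends of the annotated spans were poorly methylated in the 7 members whose strand was given. Within 1000 bp of the span start the highest levels were in the long genes. Levels at the 5' end ran from 1.09% in Sox21 to 15.0% in Sox5, with a median of 4.31%. Levels under 5% were found at 5 of the 7 (Sox1, Sox4, Sox8, Sox11 and Sox21). Over all protein-coding genes with a strand, 64.7% of 10552 measured 5' ends were under 5%, and 55.7% of 14070 over all gene classes, so the share among the Sox genes is near the background. The median over the protein-coding genes was 2.36%. Sox6 at 8.16% lay between that median and the upper quartile of 9.95%, and Sox5 at 15.0% lay above the upper quartile. The order depends on the window: within 2000 bp Sox4 was at 10.5% and Sox6 at 9.53%.

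The sequence before 4 annotated starts shows which CpGs carried these values. RefSeq starts were given for 7 members (12 starts in all, 6 of them in Sox6). Those of Sox5 and Sox6 all lie inside the gene, so the 5' ends of these 2 genes are ends of the annotated span with no start of their own in the promoter table. Assayed cytosines fell in the 250 bases before 4 of these starts. Each is printed on the strand of the gene, 5′ to 3′, from RefSeq in build GRCm38.p6. Capitals mark CpGs with an assayed cytosine on either strand, and lower case the bases that were not measured. They are shown because the first 3 hold the poorly methylated starts of Sox21, Sox11 and Sox8, and the last holds a partly methylated start inside Sox6.
Sox21, minus strand, chr14:118237031-118237280: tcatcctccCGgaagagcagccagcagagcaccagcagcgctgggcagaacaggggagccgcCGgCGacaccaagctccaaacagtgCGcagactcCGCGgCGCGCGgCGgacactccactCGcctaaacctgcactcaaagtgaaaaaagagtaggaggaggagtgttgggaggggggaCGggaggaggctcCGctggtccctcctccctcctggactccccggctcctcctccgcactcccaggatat
Sox11, minus strand, chr12:27342719-27342968: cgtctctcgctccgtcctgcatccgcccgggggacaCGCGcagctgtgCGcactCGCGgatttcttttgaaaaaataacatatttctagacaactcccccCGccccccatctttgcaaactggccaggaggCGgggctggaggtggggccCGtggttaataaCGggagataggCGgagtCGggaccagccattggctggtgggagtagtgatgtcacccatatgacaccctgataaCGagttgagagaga
Sox8, minus strand, chr17:25570687-25570936: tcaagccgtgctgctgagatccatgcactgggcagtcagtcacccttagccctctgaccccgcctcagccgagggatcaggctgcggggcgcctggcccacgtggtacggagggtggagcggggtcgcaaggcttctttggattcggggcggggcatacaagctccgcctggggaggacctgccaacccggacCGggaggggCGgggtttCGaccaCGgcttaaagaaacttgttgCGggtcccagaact
Sox6, minus strand, chr7:116031048-116031297: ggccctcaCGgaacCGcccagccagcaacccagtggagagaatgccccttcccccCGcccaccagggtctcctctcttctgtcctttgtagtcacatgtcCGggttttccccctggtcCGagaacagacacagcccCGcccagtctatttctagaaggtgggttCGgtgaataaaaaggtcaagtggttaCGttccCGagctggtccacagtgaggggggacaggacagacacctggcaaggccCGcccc

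In the Sox21 sequence 13 of 17 CpGs were assayed, and the 21 cytosines averaged 0.691%, with a lowest library at 0, a median of 0.738% and a highest of 1.23%. The library at 0 had 712 reads there, which allows a level of up to 0.421%. No cytosine there exceeded 4.21% over the pooled libraries. The Sox11 sequence had 12 of its 17 CpGs assayed and a level of 3.69% (1.19% to 6.43%), with single cytosines from 0.392% to 11.6%. In the Sox8 sequence 5 of 18 CpGs were assayed, all in its last stretch before the start, at 1.95% (0.714% to 5.03%). The Sox6 sequence lies inside the gene, upstream of an internal start, and all 10 of its CpGs were assayed. Its 14 cytosines averaged 30.02%, with libraries from 21.4% to 41.1% and single cytosines from 9.27% to 47.3%. No library of the other 3 sequences reached the lowest library of the Sox6 one. The sequences also differ in CpG density. The ratio of observed to expected CpGs was 0.641 in Sox21, 0.810 in Sox11, 0.676 in Sox8 and 0.439 in the Sox6 internal start, against a median of 0.374 over the 250 bases before all 32851 RefSeq starts in the table. The sequence CCGG (the same on both strands), which the restriction enzyme usual in this assay cuts, occurred 3 times before Sox21, 2 times before Sox8 and 1 time each before Sox11 and the Sox6 start. At least 1 CCGG was present before 47.1% of all RefSeq starts. No CCGG lay in the 250 bases before Sox1 or Sox4, which are CpG-dense (29 and 11 CpGs) but held no assayed cytosine, so the 5' end levels of these 2 genes come from cytosines further downstream.

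**Figure D1:**
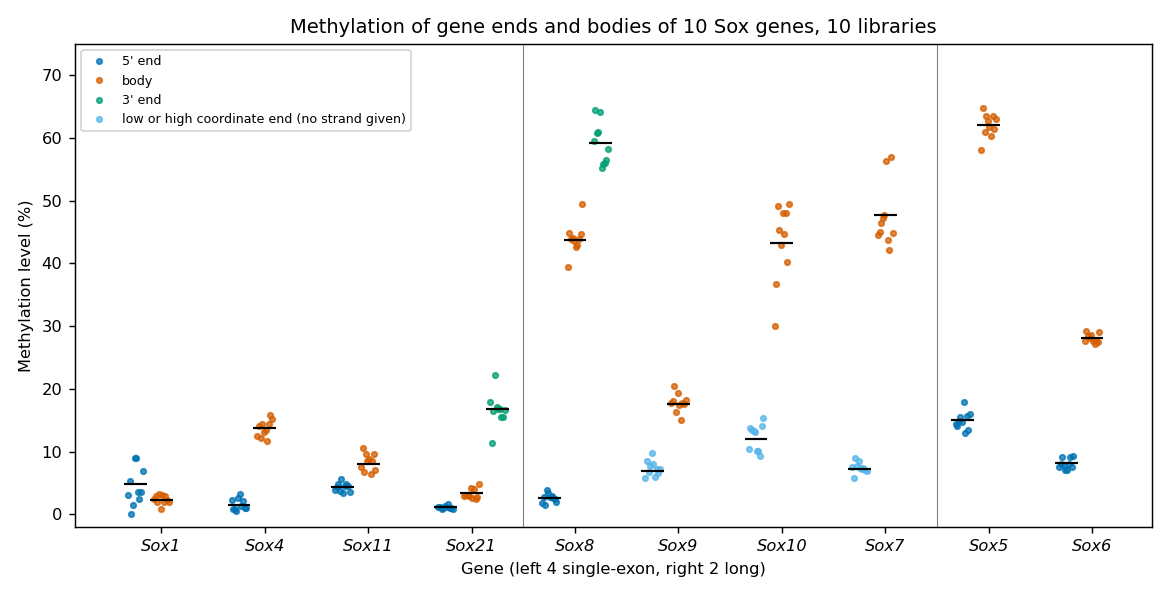
Methylation level in percent (y axis) of the 5' end, body and 3' end of each gene (x axis), or of the low or high coordinate end for the 3 genes without a given strand. Each point is 1 of 10 libraries and each black bar the pooled level. The bodies of Sox1, Sox4, Sox11 and Sox21 lie under 16% in every library, and that of Sox5 lies over 58%.

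In the B subgroup genes most assayed cytosines of the start and body carried little methylation. Sox21, on chromosome 14 (118233233 to 118237030, minus strand), had a 5' end of 1.09% over 77 cytosines, with a lowest library of 0.783%, a median of 1.06% and a highest of 1.71%. Its body was at 3.36% over 105 cytosines (2.45%, 3.05% and 4.75%). All libraries were thus low at both places, with body libraries above every 5' end library. A group here is a set of at least 5 assayed cytosines within 300 bp, and the 9 neighbouring groups from -418 bp to 2798 bp relative to the start were all under 10%. Together they held 183 cytosines at 2.51% (1.97% to 3.21%). Toward the 3' end the level was higher, at 16.8% over 24 cytosines (11.4%, 16.7% and 22.2%), above the body in every library. Of these cytosines, 14 formed a group at 18.0%, beyond the end of the span. A further group of 20 cytosines, at 8.23%, lay only partly in the 3' end and partly in the flank. With a window of 2000 bp the 3' end was at 7.70%. In the flank after the gene the level was 7.34% (3.93% to 9.74%). The flank before the start had only 4 cytosines, at 43.7% (31.5% to 57.7%). A long noncoding RNA gene on the other strand, Gm4675, starts inside the Sox21 span, so its start lies within this unmethylated stretch too.

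Sox1, on chromosome 8 (12395519 to 12399555, plus strand), was measured thinly at its start. The 5' end held 5 cytosines and 1041 reads at 4.85%, with libraries from 0 to 8.98% and a median of 3.56%. Library 3, the one at 0, had 70 reads there, which allows a level of up to 4.29%. The pooled reads were 4.80% methylated, with a 95% Wilson interval of 3.66% to 6.28% that covers counting error only and takes each read at each cytosine as independent. The body, with 53 cytosines packed into chr8:12396792-12397044, was better measured, at 2.27% (0.875%, 2.32% and 3.24%). The rest of the Sox1 span, apart from the 5 cytosines of the 5' end, held no assayed cytosine. The flank before Sox1 stood at 19.9% over 59 cytosines (17.2% to 24.1%) and the flank after it at 12.1% over 54 cytosines (8.95% to 14.3%). Every library was higher in both flanks than any library in the body. Flanks of protein-coding genes had medians of 52.1% before and 53.6% after the gene. The noncoding gene Sox1ot spans Sox1 and both flanks.

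The C subgroup genes combined unmethylated starts with bodies of low but measurable methylation. Sox11, on chromosome 12 (27334268 to 27342718, minus strand), had the most cytosines of all 5' ends in the family members described, 127, at 4.31% (3.44%, 4.37% and 5.65%). Its body was at 7.99% over 29 cytosines (6.41%, 8.45% and 10.6%), so the lowest body library stood above the highest 5' end library. Only 3 of the body cytosines, those on the plus strand, had at least 20 reads in every library, and they were at 12.9%. A chain of 7 neighbouring cytosine groups from -447 bp to 1831 bp relative to the start held 134 cytosines at 4.03% (3.03% to 5.86%). On the upstream side the level was 10.5% in the group centred at -834 bp and 18.4% in that at -1148 bp.

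Sox4, on chromosome 13 (28948919 to 28953699, minus strand), had a 5' end of 1.53% over 62 cytosines (0.527%, 1.12% and 3.15%). Its body was at 13.7% over 126 cytosines (11.6%, 13.8% and 15.8%), and no body library overlapped the 5' end. The flank before it averaged 11.8% (10.7% to 12.7%), or 18.6% with cytosines weighted by their reads. The body was graded: the group of cytosines centred 1274 bp from the start was at 3.80%, that at 1568 bp at 14.4%, and that at 1874 bp at 20.1%. Upstream, methylation of the assayed flank cytosines lay in 1 patch between low groups. The 10 cytosines at chr13:28954934-28955077, centred at -1306 bp from the start, were at 49.8% (46.7%, 49.5% and 53.9%). Further out, at chr13:28957953-28958080, 14 cytosines were at 1.00% (0 to 2.10%, the library at 0 having 513 reads, which allows up to 0.585%), and 23 cytosines beyond them were at 1.93%. No library of the low groups came near any library of the upstream patch. The patch was also read deeply, with 10547 reads at 10 cytosines over the 10 libraries, against 8519 reads at the 14 cytosines of the low group. The part of this depth in the level was not tested. The noncoding gene Gm46405 spans all of these places on the same strand as Sox4. With the 5' window widened to 2000 bp, which takes in the patch and part of the body, the Sox4 end was at 10.5%.

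**Figure D2:**
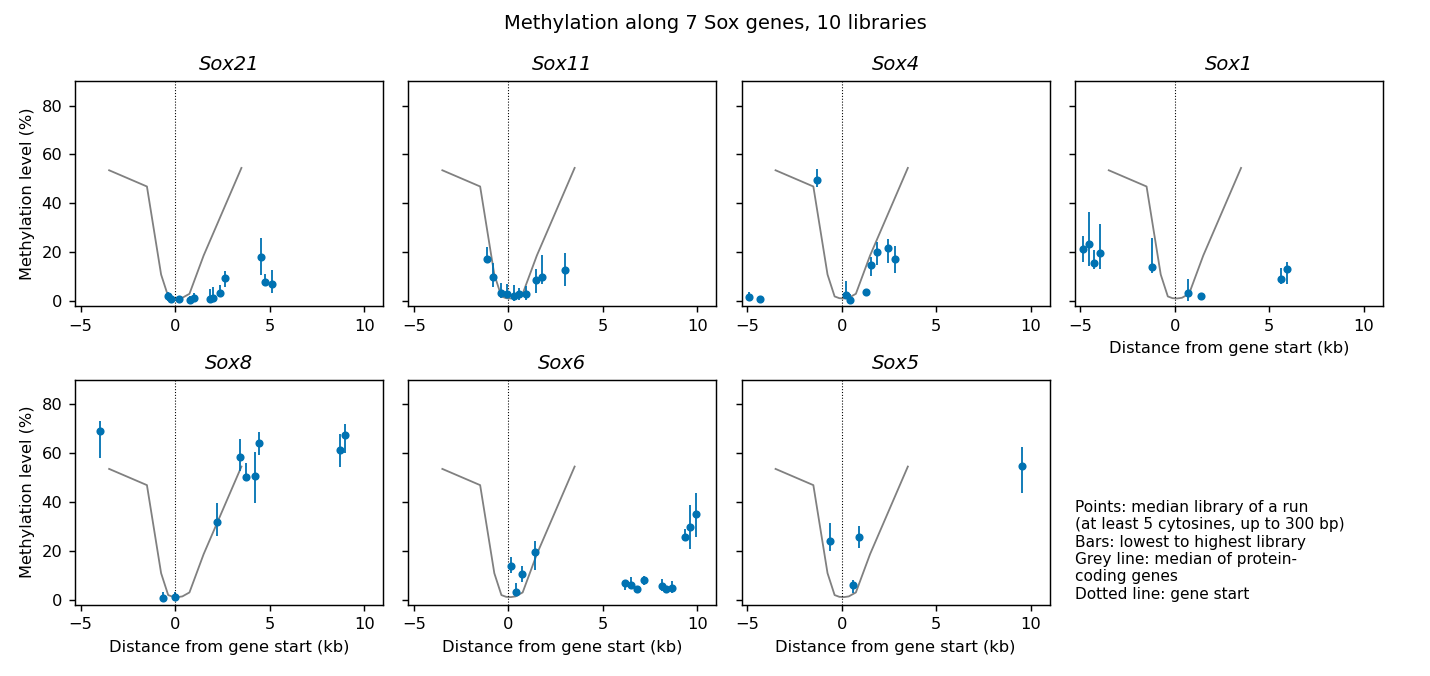
Methylation level in percent (y axis) against distance from the gene start in kb (x axis, downstream to the right) for the 7 members with a strand. Points are the median library of groups of at least 5 cytosines within 300 bp, bars run from the lowest to the highest library, and the grey line joins the medians of protein-coding genes in distance bins. Sox21 stays under 10% to 2.8 kb into the gene, Sox4 has a patch at 49.5% before its start, and Sox8 returns to levels over 50% within 4 kb.

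In the E subgroup all 3 genes had a poorly methylated end beside a more methylated body, and their bodies differed. The chain of groups under 10% with the most cytosines held 31 cytosines in Sox8, 56 in Sox9 and 15 in Sox10. Sox8, on chromosome 17 (25565893 to 25570686, minus strand), had all 5 regions measured. Its 5' end was at 2.57% over 32 cytosines (1.44%, 2.64% and 3.85%). Every other region was far above it in all libraries: the body was at 43.8% over 32 cytosines (39.4%, 43.9% and 49.5%), the 3' end at 59.1% over 31 (55.2%, 58.9% and 64.5%), the flank before at 68.3% over 14 (57.9% to 73.1%) and the flank after at 61.8% over 27 (57.3% to 65.6%). The unmethylated stretch spanned 816 bp, from -747 bp to 68 bp relative to the start, with 31 cytosines in 2 groups at 1.27% (0.649% to 2.64%). The noncoding gene Cerox1 begins 125 bp before the Sox8 start on the opposite strand. Its start lies between these 2 groups, where no cytosine was assayed, so the level there was not measured. The methylated cytosines in the flank before Sox8 lie inside Cerox1. Sox8 was the only member for which all 5 regions held at least 10 cytosines. Among 288 protein-coding genes measured so, the profile closest to it was that of Gsto2, a glutathione transferase gene, at a Euclidean distance of 13.5 points over the 5 levels. Gsto2 had 75.2% before the start, 0.661% at the 5' end, 54.9% in the body, 57.0% at the 3' end and 62.3% after it.

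For Sox9 and Sox10 no strand was given, so their ends are named by coordinate. Sox9, on chromosome 11 (112782210 to 112787757), had only its low end and its body measured. The low end was at 6.91% over 83 cytosines (5.75%, 7.21% and 9.70%) and the body at 17.5% over 51 (15.1%, 17.7% and 20.5%), with no overlap of the libraries. Within the low end, 25 cytosines at chr11:112781264-112781553 stood at 11.998%, and the 20 cytosines at chr11:112782574-112782702 stood at 3.03%. Within 500 bp the Sox9 low end was at 3.21%. Sox10, on chromosome 15 (79154913 to 79164490), had a high end of 12.1% over 39 cytosines (9.34%, 13.2% and 15.3%), made up mainly of 15 cytosines at 4.40% and 20 neighbouring ones at 16.7%. This level depended on the cytosines taken in: it was 18.8% within 500 bp, 19.4% within 2000 bp and 18.03% over the 8 cytosines with at least 20 reads in every library. Its body was at 43.3% over 18 cytosines (30.1%, 44.97% and 49.5%), its high flank at 47.6% (43.0% to 52.7%) and its low flank, which holds the end of Polr2f, an RNA polymerase subunit gene, at 80.03% over 8 cytosines (71.1% to 85.9%). Body libraries lay above all libraries of the high end. Sox10 thus had 34.8% of its 89 assayed cytosines under 20%, whereas Sox9 had 85.1% of 134 and Sox8 23.5% of 136.

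Sox7, the F subgroup gene on chromosome 14 (63943706 to 63950732, no strand given), combined a low end with a methylated body. The low end was at 7.22% over 82 cytosines (5.83%, 7.37% and 8.95%), and at 3.27% within 500 bp. A core of 39 cytosines at chr14:63943717-63944011 was at 2.11% (1.17% to 4.48%). The low flank stayed low, at 14.1% over 76 cytosines (12.7% to 15.0%), and included 32 cytosines at 4.46%. The body was at 47.8% over 37 cytosines, with libraries from 42.1% to 57.1% and a median of 45.8%. Libraries 6 and 9 were the high ones in the body, at 56.3% and 57.1%, and the other 8 lay between 42.1% and 47.7%.

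The D subgroup genes differed from each other along their length. Sox5, on chromosome 6 (143828425 to 144782287, minus strand), spans 953863 bp and held 798 cytosines. Its 5' end was at 15.0% over 55 cytosines (12.9%, 14.8% and 17.9%), of which 27 cytosines centred 609 bp into the gene were at 5.62% (2.99% to 8.09%) and the groups on either side at 25.8% and 24.4%. Within 500 bp of the start the level was 6.72% over 7 cytosines (3.84% to 9.43%). The body was at 62.1% over 743 cytosines (58.1%, 62.2% and 64.7%). Cut into 10 equal segments from the start, it varied between 50.5% in the segment nearest the start and 67.8% in the last, and 39 of 67 groups of cytosines in the gene were over 60%. The highest group, 6 cytosines at chr6:143883778-143883885, was at 84.2% (74.4% to 90.8%). No group of Sox5 was under 5%. An internal RefSeq start of Sox5 (143947106) had no assayed cytosine within 1000 bp.

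Sox6, on chromosome 7 (115470872 to 116040776, minus strand), spans 569905 bp and held 441 cytosines. The 5' end was at 8.16% over 62 cytosines (6.98%, 7.90% and 9.22%), and the body was at 28.1% over 379 (27.2%, 27.9% and 29.2%). The body mean was set by where the cytosines lay, since 64.1% of them were in the segment nearest the start, at 13.0% (12.1% to 14.0%). The other 9 segments together were at 55.2% over 136 cytosines (52.6%, 55.2% and 57.3%). Even so, the next 2 segments were at 36.1% and 35.9% over 9 and 14 cytosines, lower in every library than the same segments of Sox5, at 66.4% and 57.9%. From segment 4 onward Sox6 ran between 49.8% and 67.5%.

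The low segment of Sox6 was largely 1 stretch inside the gene. From 6007 to 8784 bp downstream of the start (chr7:116031992-116034769) 7 neighbouring groups with 170 cytosines averaged 5.36% (4.66%, 5.26% and 5.96%), below the 5' end of the gene in every library. The noncoding gene Sox6os lies at the downstream edge of the stretch, on the opposite strand. Past that edge, 424 bp further into Sox6, the level was 26.1%, and at the internal start whose sequence is printed above the cytosines within 1000 bp were at 23.8% over 65 cytosines (21.2% to 26.7%). Around another internal start, at 115824710, 10 cytosines were at 74.99% (69.2% to 82.2%). The start at 116038744 had 9 cytosines at 19.0% (12.1% to 24.2%), and the remaining 3 internal starts had none. Cytosines within 1000 bp of an annotated internal start were at 29.4% and the rest of the body at 27.8%, and the ranges over the libraries (27.3% to 31.6% and 26.5% to 28.6%) overlapped.

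**Figure D3:**
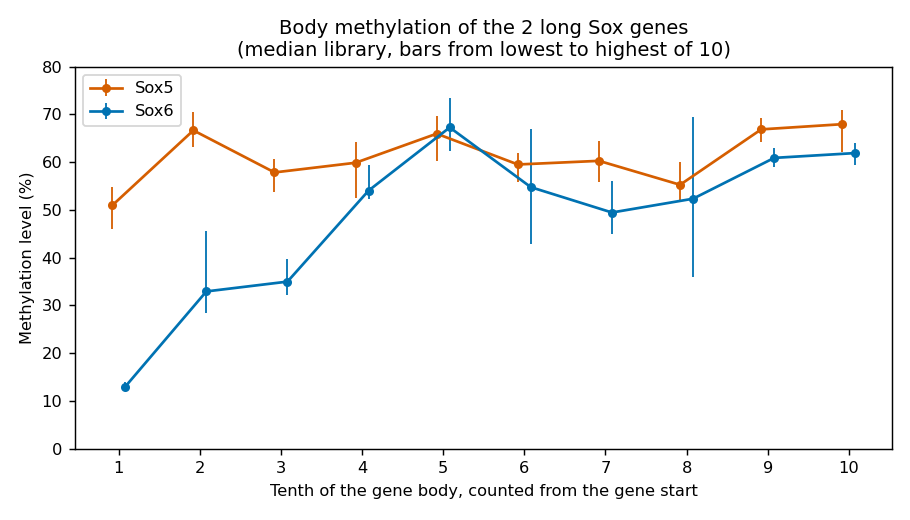
Methylation level in percent (y axis) of the bodies of Sox5 and Sox6 in 10 equal segments counted from the gene start (x axis). Points are the median library and bars run from the lowest to the highest of 10 libraries. Sox6 is at 13.0% in the segment nearest the start and 32.9% in the next, while all segments of Sox5 are at 50.9% or more.

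Among the 10 members, the 4 single-exon and the 2 long genes were separated by their bodies in all libraries. Bodies of Sox1, Sox4, Sox11 and Sox21 had pooled levels of 2.27% to 13.7%, against 28.1% in Sox6 and 62.1% in Sox5. For each of the 8 pairings of a single-exon with a long gene, the long gene was higher in 10 of 10 libraries and the ranges did not overlap. The median of the 2 long bodies exceeded that of the 4 single-exon bodies by 39.4 points. Sox genes outside the members were not sorted by exon number. Their 6 measured autosomal bodies ran from 2.27% to 44.5%, with 2 under 5% and 3 over 20%. Those 3, Sox12 (29.2%), Sox14 (35.6% over 6 cytosines) and Sox13 (44.5%), had pooled levels above the Sox6 body. Those of Sox2, Sox17 and Sox30 were below it. Whether the separation holds outside the 10 members was not tested. At the 5' end Sox5 was higher than each single-exon gene in 10 of 10 libraries, by 10.1 to 13.9 points. Within 500 bp, where Sox5 had 7 cytosines and Sox1 none, it was higher than Sox4 and Sox21 in 10 of 10 libraries and than Sox11 in 9 of 10, by 3.18 to 5.65 points. Sox6 was higher than Sox4, Sox11 and Sox21 in 10 of 10 libraries but higher than the thinly measured Sox1 in 8 of 10, with overlapping ranges. Within 2000 bp Sox6 was higher than Sox1, Sox11 and Sox21 in 10 of 10 libraries but higher than Sox4 in 2 of 10, with a pooled difference of -0.997 points. Genes are not replicates, and body cytosines were closely packed in the single-exon genes and sparse in the long ones. Those of the single-exon genes all lay within 10000 bp of the start. The Sox6 segment nearest the start, at 13.0% (12.1% to 14.0%), overlapped the Sox4 body and exceeded those of Sox1, Sox11 and Sox21. The low Sox6 stretch, at 5.36%, was below the Sox4 and Sox11 bodies in every library and above the pooled Sox1 and Sox21 bodies. The part of distance from the start was not tested.

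Set against other genes, body levels of 5 of the 8 short members were low, but this stood out less once the packing of cytosines was considered. A body under 20% was found in 5 of the 10 members (Sox1, Sox4, Sox9, Sox11 and Sox21), against 9.11% of 14131 protein-coding genes, whose median was 57.5%. Of the 8 members with a span of 3000 to 10000 bp it was found in 5, against 22.0% of 2310 such genes. Of the 7 among them with at least 25 body cytosines it was found in 5, against 40.6% of 922. The other members of this span were Sox7 (47.8%), Sox8 (43.8%) and Sox10 (43.3%). They lay within the quartiles of the 2310 genes (24.6% to 68.5%, median 52.5%). Sox5 at 62.1% was within the quartiles of protein-coding genes over 100000 bp long (48.2% to 64.5%), of which 36.5% were over 60%. Sox6 at 28.1% was under 30%, as were 6.78% of those 2301 genes, although its body without the segment nearest the start was at 55.2%, close to their median of 56.1%. Of the 2 measured 3' ends, that of Sox8 exceeded 20% and that of Sox21 did not, against 83.1% of 4286 protein-coding 3' ends over 20% (84.1% of 6424 over all gene classes).

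The spread over the libraries was wider than that of like regions at some member regions and narrower at others. The 10 libraries spanned a median of 5.58 points over the 34 measured regions. The largest distances were at regions of few cytosines, 30.8 points after Sox4 and 26.2 points before Sox21, each with 4 cytosines. The flank before Sox8 spanned 15.2 points over 14 cytosines, and the bodies of Sox10 and Sox7 spanned 19.4 and 14.9 points over 18 and 37. Protein-coding bodies of like cytosine number and a level within 5 points had median distances of 11.8 points (343 bodies, 8.45% of them wider than Sox10) and 8.495 points (395 bodies, 4.30% wider than Sox7). Like flanks had median distances of 18.7 points for the flank after Sox4 (297 flanks, 6.40% wider) and 18.1 points for that before Sox21 (462 flanks, 17.5% wider). The Sox9 low end, at 3.95 points, was wider than most, as only 12.4% of 1130 like ends were wider. The Sox21 5' end, at 0.928 points, was narrower than most, as 82.6% of 2662 like 5' ends were wider. So was the Sox6 body, at 1.99 points, as 94.5% of 451 like bodies were wider. The library lowest over all autosomes, library 1, was also the lowest at the most member regions, 8 of 34, and at no region was it the highest. Library 10 was the highest at 8 and library 4 at 7.

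Differences over libraries were also tested cytosine by cytosine. A chi-square test of homogeneity with the statistic divided by 2, since fragments may be counted in both mates, was applied to 1851 member cytosines of 5 to 95% pooled level, within 1755343 autosomal ones, with Benjamini-Hochberg adjustment over all of these. It called 2 member cytosines at an adjusted p under 0.05 (0.108%), against 0.0867% of all tested. Unadjusted, 125 of the 1851 were under 0.05, against 114134 of the 1755343 (6.50%). One called cytosine was in the Sox11 body (position 27339682), with libraries from 0 to 48.0% around a pooled 6.94% and an adjusted chi-square p of 0.0261. The other was at the Sox7 low end (63944031), with libraries from 0 to 50.0% around 8.72% and an adjusted chi-square p of 0.0435. In both, a coverage of 16 reads in the least covered library limits the level of that library. Without the division 499 of the 1851 were called (27.0%), against 25.4% of all tested. Unadjusted, 723 of the 1851 were then under 0.05, against 672518 of the 1755343 (38.3%). With at least 20 reads in every library the divided chi-square test called none of 1003, against 0.167% of all tested. Unadjusted, 94 of the 1003 were under 0.05, against 93911 of 1059124 (8.87%).

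Other Sox genes, HMG box relatives and Sox partners also mostly had starts of lower methylation than their bodies. Sox30 was the other way round, and so was the measured end of Sox17, an endoderm factor with no strand given, at 12.3% (9.05% to 16.3%) against a body at 4.34% (3.44% to 5.34%). Of the 8 other autosomal Sox genes, 6 had a strand and a measured 5' end, with a median of 9.45% and 3 under 5%. Sox2, a pluripotency and neural factor, was at 1.17% and Sox12, the third C subgroup gene, at 0.923%, while Sox30, a testis factor, was at 39.5% (34.6% to 50.2%) with a body at 8.12% over 92 cytosines. Sox12 had a body at 29.2% (26.9% to 30.3%), above those of Sox4 and Sox11 in every library. Sox3, the X-linked B1 gene, was at 8.15% at its high end (1.41% to 17.8%), and Sry had no assayed cytosine. The HMG box relatives that mediate Wnt signalling, Tcf7, Tcf7l1, Tcf7l2 and Lef1, had all 4 of their 5' ends under 5% and bodies of 53.6% to 66.9%. Of 9 measured 5' ends of Sox partners and targets, 6 were under 5% and none over 20%, with a median of 3.52%. Pax6, a partner in eye and brain, was the highest at 16.1% (13.5% to 20.6%). The neural partner Pou3f3 was the partner with the lowest body, at 2.68% over 24 cytosines (0.463% to 5.99%), with a range that overlapped that of its 5' end at 3.52% (3.07% to 4.37%), and Mitf, a Sox10 target in pigment cells, had the highest, at 69.0% (66.6% to 73.6%).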

How the data were processed

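DNA methylation of 10 mouse embryos was measured by reduced representation bisulfite sequencing. For each of 10 libraries the authors deposited raw read counts at single CpG cytosines, split into coverage, methylated and unmethylated reads, per the file headers. Trim Galore, Bismark, methylKit and mm10 are named in the submitters' processing notes; nothing records versions, settings, deduplication or mate overlap, so reads may not be independent and intervals cover counting error only. No cytosine has fewer than 10 reads in any library, and strands are not merged. All 30 per-sample columns matched no sample or group, so the planned group test was not run.

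A level is methylated reads over coverage per cytosine, averaged over cytosines. Genes and strands came from RefSeq (GRCm38.p6, the coordinates of mm10); 99.995% of 180994 assayed cytosines in promoter sequences lay on a CpG. Strand was given for 7 of the 10 members. Exon structure is background knowledge. All members are named; other genes come from lists of the family, its HMG box relatives and its partners and targets, and from the rule for the closest profile. Members and lists were chosen with earlier results of these data known. Groups of cytosines are runs of at least 5 within 300 bp, and runs under 10% were joined into stretches. This joining, the cut of long bodies into 10 segments, the split at internal starts, the minimum of 25 body cytosines and the share of bodies under 20%, under 30% and over 60% were chosen after levels were seen. Python 3.11.15, pandas 2.3.3, numpy 2.4.6 and scipy 1.17.1 were used. Alternatives were other coverage minimums, windows, strands and weights, and each library left out.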

Additional observations from a re-analysis of the deposited data

Results flagged for a closer look

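At 1 of the 34 measured regions a single library stood apart from the other 9. The Sox8 body in library 10 was at 49.5%, while the next highest library was at 44.8% and the lowest at 39.4%. The gap to the next library only just passed the 95% limit of Dixon's test for 10 samples. Chance marks about 1 in 20 such regions, and the 10 libraries mix control and arsenic embryos.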

How the results depend on the processing

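No paired analysis was possible because the columns carry neither groups nor sample names, and the group difference and its replicate block were not run. The median over the gene ends was 7.06% (12 ends). It was 6.31% on the plus strand, 8.40% on the minus strand, 3.40% with windows of 500 bp (10 ends) and 9.75% with windows of 2000 bp (14 ends). The median over bodies and flanks was 24.0% (22 regions). It was 19.1% at a coverage of at least 20 in every library, 19.8% on the plus and 19.5% on the minus strand, and 18.4% without cytosines within 1000 bp of an end of another gene, and these settings measure fewer regions. The long bodies exceeded the single-exon ones by 38.0 points at a coverage of at least 20. With windows of 2000 bp, 3 of 7 Sox 5' ends were under 5%, with Sox4 at 10.5% and Sox11 at 5.33%. The chi-square test called 499 cytosines with the statistic not divided and 0 at a coverage of at least 20, with 94 under 0.05 unadjusted. Each library was also left out in turn (for the long against single-exon difference chosen after seeing the data). The medians were then 6.96% to 7.19% for ends and 23.7% to 24.3% for bodies and flanks, and the difference 39.2 to 39.7 points. Single regions moved by -1.70 to 2.18 points. No region moved by more than its spread over the libraries, but leaving out 1 of 10 libraries could hardly do so. The Sox1 5' end, the flank after Sox4 and the flank before Sox21 had fewer than 3 cytosines at a coverage of at least 20. The Sox8 5' end was at 1.09% on the plus and 5.81% on the minus strand.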
